A study of Mus musculus with 27 samples.

Results

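The Snail, Twist, Zeb and Prrx transcription factors, Snai1, Snai2, Twist1, Twist2, Zeb1, Zeb2, Prrx1 and Prrx2, were examined in every population of a mouse embryonic stem cell (ESC) differentiation course towards blood and smooth muscle. The 8 genes belong to these families and were chosen with earlier results of these data known. Another Snail gene, Snai3, was placed in a list of other mesenchymal transcription factors. The array probes of the 8 were matched through the transcript accession printed with each probe. All 8 were found, through 10 probes, among 20145 genes with a symbol on the array. Zeb2 and Prrx1 had 2 probes each, and the brighter probe was used.

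Snail and Zeb proteins are zinc finger repressors that bind E-box sequences, and Cdh1, which encodes E-cadherin, is their best known target. Twist proteins are basic helix-loop-helix factors that pair with E proteins, and Prrx proteins are homeobox factors of limb and craniofacial mesenchyme. Together they are known for loosening cell contacts when epithelial cells turn into mesenchyme, as at gastrulation, where Snai1 acts in nascent mesoderm. Hemogenic endothelium also gives up its attachment, rounding up and floating off as blood progenitors in the endothelial-to-hematopoietic transition (EHT).

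The series held 27 one-colour arrays in 13 groups. All cells came from an A2lox ESC line carrying a FLAG-tagged dominant-negative FOS (dnFOS) behind a doxycycline (DOX) switch at the Hprt locus. The dnFOS peptide binds JUN proteins and keeps the AP-1 transcription factors off DNA. The comparison of DOX with no DOX asked what AP-1 does at each stage. FLK1+ cells, the mesodermal hemangioblast stage, were purified from embryoid bodies after 3.75 days (2 arrays). They were then placed in blast culture, and whole cultures were taken after 5 h (called FLK1+ 5h) and 1 day (d1 BC), with and without 1 µg/ml DOX, with 2 arrays in each of these 4 groups. Smooth muscle cells (SM) and the 3 blood-forming populations were sorted at day 2, without DOX or after 2 days of DOX. Early hemogenic endothelium (HE1) was KIT+TIE2+CD41-, late hemogenic endothelium (HE2) was KIT+TIE2+CD41+, and hematopoietic progenitors (HP) were KIT+TIE2-CD41+. There were 3 untreated SM arrays and 2 in each other sorted group. The untreated cells carried the dnFOS cassette too, no cells lacking it received DOX, the line came from picked clones, and the ESCs were kept on fibroblast feeders before differentiation. Nothing in the labels says that replicates were separate cultures, so p-values measure the spread between these arrays, which may be technical. In bulk RNA, fewer cells of a type and less RNA per cell cannot be told apart.

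A level below is the log2 signal of a gene's probe minus the 75th percentile of its array, so 0 means that percentile. Levels of different genes come from different probes and are not set against each other. A gene was called changed at a limma Benjamini-Hochberg adjusted p under 0.05 with a log2 difference of at least 1. Hprt, which shares its locus with the cassette, was higher with DOX in all 6 populations, by 1.41 (FLK1+ 5h) to 3.63 (d1 BC) on the log2 scale, and was called in d1 BC and SM. The 75th percentile signal ran from 73.2 on HE2 replicate 1 to 639, so HE2 replicate 1 had the weakest signal, and only 2 of the 8 genes were well above background there. SM replicate 2 and SM DOX replicate 2 stood apart from the other SM arrays. The log2 summed level of 12 endothelial markers was 8.23 and 9.02 on these arrays, against 4.74 to 5.18 on the other 3 SM arrays. The 2 HE1 arrays differed in some fibroblast markers. Of 5 followed per array, 3 were higher on replicate 1 than on replicate 2, Lum (0.93 and, not above background, -6.18), Dcn (0.72 and -2.88) and Postn (2.62 and -0.85), and Thy1 (-3.05 and -2.97) and Fap (not above background, -4.49, and -3.76) were not. Of 12 smooth muscle markers, 10 were above background on each HE1 array, among them Tagln at 7.78 and 7.36, and Myh11 was not.

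AP-1 was the factor blocked, so the promoters were searched for its site, and for TEAD and E-box sites. Chosen after the matches were seen, and shown as examples, are the windows of Snai1, Zeb2 and Prrx1 that held a match and, for contrast, that of Twist2, which held none and had the lowest DOX difference described below. The tables used here held windows of 300 bases around the start site for 6 of the 8 genes, and the 250 bases before it are printed. The motifs searched on both strands were TGANTCA, the AP-1 site, GGAATG, the site of TEAD factors that often sit beside AP-1, and CAGGTG, an E-box bound by Snail and Zeb proteins. Capitals mark their matches. Sequences are from RefSeq, build GRCm38.p6, 5′ to 3′ on the gene's strand. Snai1 lies on the plus strand (chr2:167537945-167538194), the fourth start of Zeb2 on the minus strand (chr2:45110278-45110527), Prrx1 on the minus strand (chr1:163313651-163313900) and Twist2 on the plus strand (chr1:91801211-91801460).
Snai1: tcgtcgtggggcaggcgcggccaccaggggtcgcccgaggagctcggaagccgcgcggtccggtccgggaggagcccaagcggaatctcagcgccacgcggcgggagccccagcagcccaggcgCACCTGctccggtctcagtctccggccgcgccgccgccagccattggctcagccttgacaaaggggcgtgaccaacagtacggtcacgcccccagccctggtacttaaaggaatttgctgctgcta
Zeb2: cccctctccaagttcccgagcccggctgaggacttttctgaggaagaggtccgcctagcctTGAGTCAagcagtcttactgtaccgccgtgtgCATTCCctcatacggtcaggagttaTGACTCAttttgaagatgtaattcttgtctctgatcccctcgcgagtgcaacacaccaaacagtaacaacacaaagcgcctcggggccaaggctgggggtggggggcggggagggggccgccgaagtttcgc
Prrx1: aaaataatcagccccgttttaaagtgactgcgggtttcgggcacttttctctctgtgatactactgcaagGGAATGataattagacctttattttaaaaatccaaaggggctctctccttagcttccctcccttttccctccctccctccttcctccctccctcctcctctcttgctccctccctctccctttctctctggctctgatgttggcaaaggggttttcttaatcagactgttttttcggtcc
Twist2: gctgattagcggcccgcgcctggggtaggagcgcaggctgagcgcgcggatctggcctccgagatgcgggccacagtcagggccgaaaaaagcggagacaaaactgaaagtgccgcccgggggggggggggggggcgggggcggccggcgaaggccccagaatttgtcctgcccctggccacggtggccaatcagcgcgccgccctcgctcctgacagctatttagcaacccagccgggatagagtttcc
The Snai1 window held 1 E-box, at -126 from the start site. The window of the fourth Zeb2 start held 2 AP-1 matches, at -189 and -132, with a TEAD match between them at -157. The Prrx1 window held 1 TEAD match, at -180. No match lay in the windows of Twist1, Twist2, Prrx2 or the other 3 Zeb2 starts. Among 32851 mouse windows of the same length, 7.81% held the AP-1 letters, 14.7% the TEAD letters and 20.2% the E-box letters. A match describes the sequence only.

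Along the untreated course, the means of Snai1, both Twist genes and Prrx2 were lowest in HE2 and HP. Snai1 and Twist1 had their highest means in FLK1+ cells, Twist2 in SM and Prrx2 in FLK1+ 5h cells. The Snai2 means were highest in SM and d1 BC and lowest in HE2 and FLK1+ cells. Zeb1 had its highest mean in HE1, and Zeb2 was spread narrowly throughout. Prrx1 was near background in most groups, being above it on 9 of 27 arrays.

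**Figure D1:**
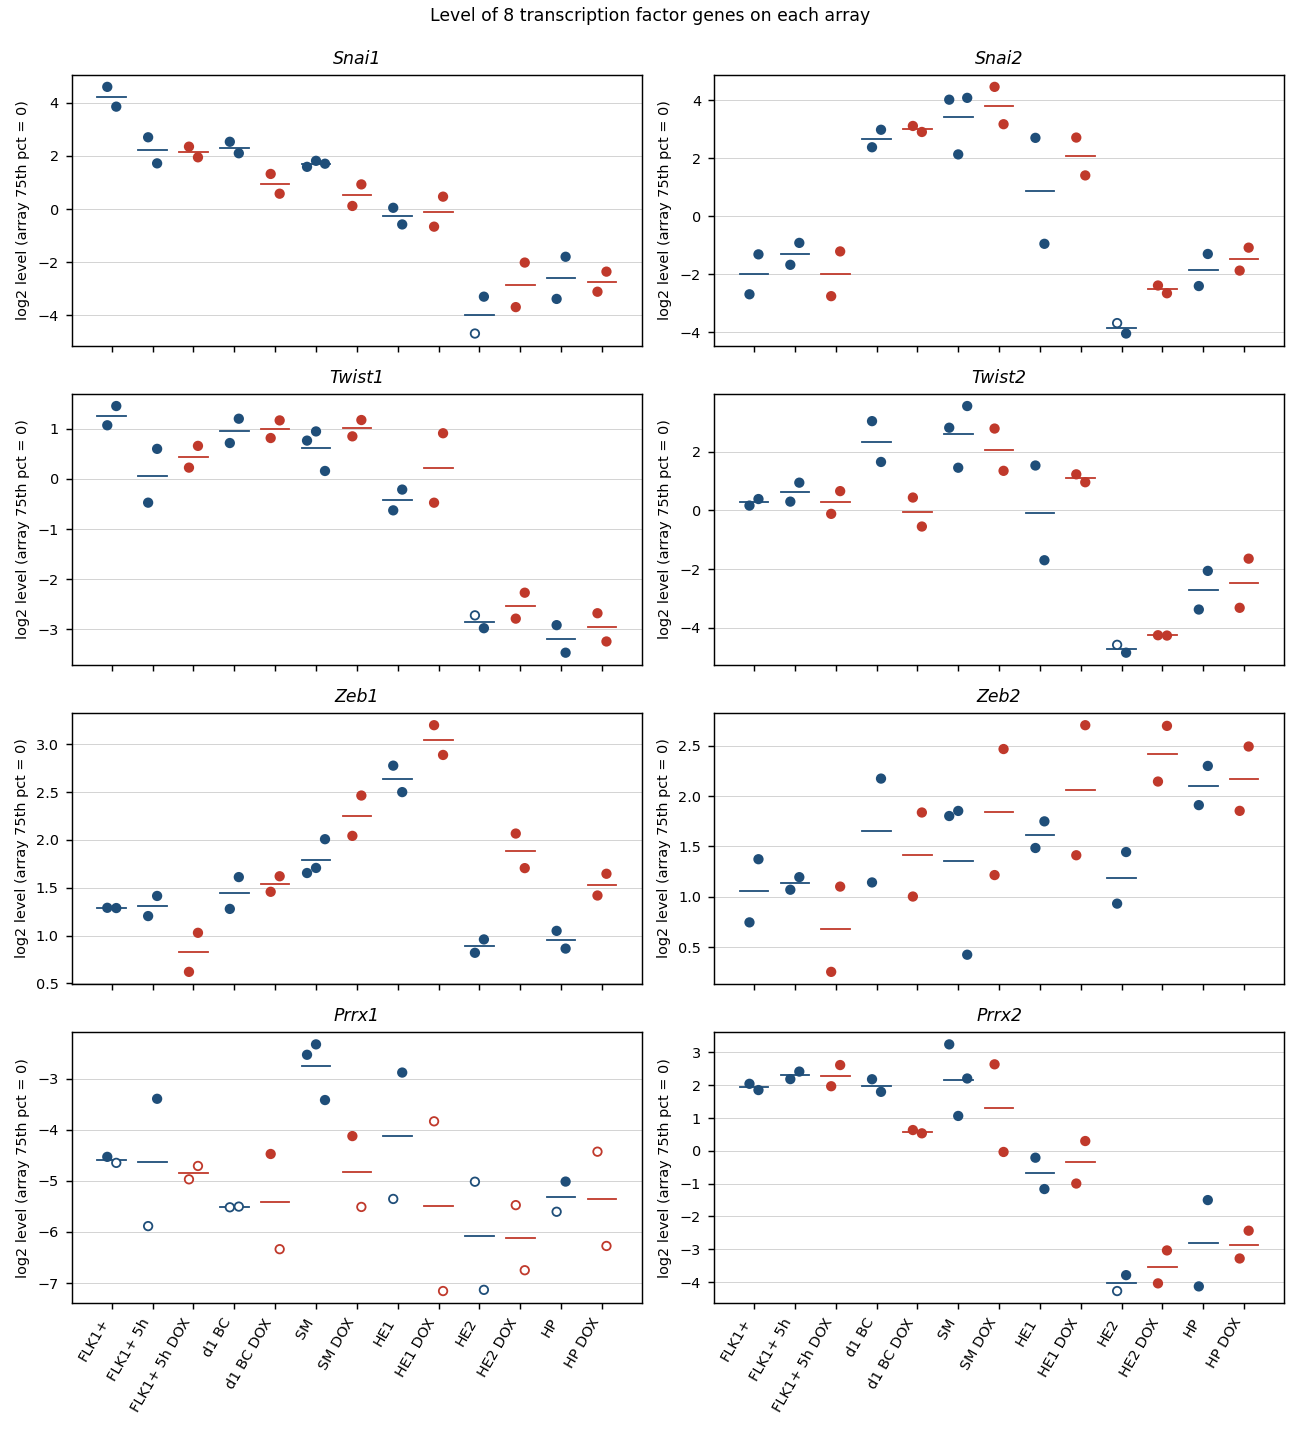
Level of each of the 8 genes on each array (y axis, log2 signal minus the array's 75th percentile) in the 13 groups (x axis), blue without DOX and red with DOX. Filled points are above background, hollow points are not, and horizontal lines are group means. Snai1, Snai2, Twist1, Twist2 and Prrx2 have their lowest untreated means in HE2 or HP, while Zeb2 stays between 0.25 and 2.71.

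Of the 8 calls of these genes at steps between untreated populations, not counting HE1 against HP, 6 were at the step from HE1 to HE2, when CD41 appears on hemogenic endothelium. Of the 7 genes tested, 6 fell, while 2.08% of all 23454 tested genes were called lower. The called genes other than Zeb1 were above background on 1 of the 2 HE2 arrays and entered the test through HE1, the group where they are high, and with detection required in both groups only Zeb1 was called. Snai1, Snai2, Twist1, Twist2, Zeb1 and Prrx2 fell by 1.75 to 4.74 on the log2 scale. Both slides that carried HE1 and HE2 gave a negative difference for all 7. The 7 genes were all lower in HE2 without overlap between the groups, against 16.1% of all genes.

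Snai1, the repressor of nascent mesoderm, read 0.05 and -0.58 in HE1, and -4.68 and -3.29 in HE2. It fell by 3.72 (SE 0.67, adjusted p = 0.00427). The groups did not overlap, but the HE2 reading of -4.68 was not above background, so the size of the fall is uncertain. Snai2, also called Slug, read 2.70 and -0.95 in HE1, and -3.68 and -4.04 in HE2. It fell by 4.74 (SE 0.95, adjusted p = 0.00863). The HE1 arrays themselves lay far apart for Snai2, but both exceeded both HE2 arrays.

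Twist1 read -0.63 and -0.21 in HE1, and -2.72 and -2.98 in HE2, and fell by 2.43 (SE 0.51, adjusted p = 0.0122). Twist2, its close relative, read 1.52 and -1.70 in HE1, and -4.58 and -4.85 in HE2, and fell by 4.63 (SE 0.90, adjusted p = 0.00690). Both genes were lower on both HE2 arrays, and, as for Snai2, HE1 replicate 1 was the higher for Twist2. Prrx2 read -0.21 and -1.16 in HE1, and -4.27 and -3.79 in HE2, and fell by 3.34 (SE 0.87, adjusted p = 0.0470). On HE2 replicate 1, Snai1, Snai2, Twist1, Twist2 and Prrx2 were not above background, so their HE2 mean rests on 1 array above background.

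Zeb1 read 2.78 and 2.50 in HE1, and 0.82 and 0.96 in HE2, all above background. It fell by 1.75 (SE 0.37, adjusted p = 0.0123), or 3.36-fold. Zeb2 read 1.48 and 1.75 in HE1, and 0.93 and 1.44 in HE2. Its difference of -0.43 did not pass the test (adjusted p = 0.999, 95% interval -1.72 to 0.86), so the paired repressors Zeb1 and Zeb2 gave different readings at this step, although the difference between them was not tested. Prrx1 was above background on 1 HE1 array and on neither HE2 array, and was not tested.

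The number of genes called here depended on single arrays, on the background correction and scaling, and on the model. With median scaling just Snai1 and Twist2 were called, with the replicate number as a block Prrx2 was lost, and with only the compared groups in the fit 0 were called. Without HE1 replicate 1, and likewise without HE2 replicate 1, 0 of the 6 were called, at differences of -1.61 to -3.41 and of -1.68 to -4.92. Without HE1 replicate 2, 3 were called (Snai1, Snai2 at -6.56, Twist2 at -6.24), and without HE2 replicate 2, 3 were called (Snai1, Twist2, Zeb1). The call of Prrx2 was also lost, at an adjusted p up to 0.0640 and the same difference, without any 1 of 15 arrays of other groups. With the normexp background correction the falls shrank to 1.64 for Snai1, 2.70 for Snai2, 1.37 for Twist1, 2.30 for Twist2 and 1.41 for Prrx2, and only Zeb1 was called (-1.39). Beside these falls, the log2 summed level of 13 fibroblast markers was 6.31 and 5.56 in HE1 and 2.76 and 2.60 in HE2, with 9 of the 13 above background on each HE1 array. The summed level of 12 smooth muscle markers was 9.30 and 8.17 in HE1 and 6.38 on both HE2 arrays. HE1 replicate 1, the higher array for Snai2 and Twist2, was the higher one for both lists. It was the lower one for the summed level of 26 mesenchymal genes, which was 10.9 on replicate 2. The mesenchymal list shares genes with the fibroblast list, among them Lum, Dcn, Postn and Thy1. Among the defining markers, Postn was 2.62 and -0.85 in HE1, and Acta2 was 8.42 and 6.34, while Lum was above background on no HE2 array. The part of such cells in the falls was not tested.

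The same step on the DOX-treated arrays, which share none with the untreated step, called 4 of the 7 genes lower, against 1.16% of all genes tested. Twist2 read 1.22 and 0.96 in HE1 DOX and -4.25 and -4.26 in HE2 DOX, and fell by 5.35 (SE 0.90, adjusted p = 0.00486). Snai2 fell by 4.58 (adjusted p = 0.0161), Twist1 by 2.75 (adjusted p = 0.00954) and Snai1 by 2.75 (adjusted p = 0.0447). Here all 4 genes were above background on all HE2 DOX arrays, unlike on HE2 replicate 1. Prrx2 differed by -3.19 (adjusted p = 0.0798), Zeb1 by -1.16 (adjusted p = 0.166) and Zeb2 by 0.36 (adjusted p = 0.997). With the slide as a random or fixed block, Prrx2 (adjusted p = 0.0140 and 0.0211) and Zeb1 (adjusted p = 0.0133 and 0.0218) were called as well, at the same differences. The call of Snai1 was lost with normexp, quantile normalization, median scaling, no filter on dim probes, detection required in both groups, array weights and only the compared groups in the fit. Leaving out single arrays gave 1 to 5 calls, with Prrx2 called at the same difference without either SM DOX array or either HP array. The call of Snai1 was lost without HE2 DOX replicate 1 (-1.91), without HE1 DOX replicate 2 (-2.19) or without HE1 DOX replicate 1 (-3.32). It was also lost, at an adjusted p up to 0.0617 and the same difference, without single arrays of other groups. Snai2 was lost without HE2 DOX replicate 1 (-4.71), HE2 DOX replicate 2 (-4.45) or HE1 DOX replicate 1 (-3.93). Twist1 was lost without HE1 DOX replicate 2 (-2.06) or HE2 DOX replicate 1 (-2.49), and Twist2 without HE1 DOX replicate 1 (-5.21). The fibroblast summed level again moved along, at 5.32 and 4.64 in HE1 DOX and 1.95 and 2.59 in HE2 DOX.

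**Figure D2:**
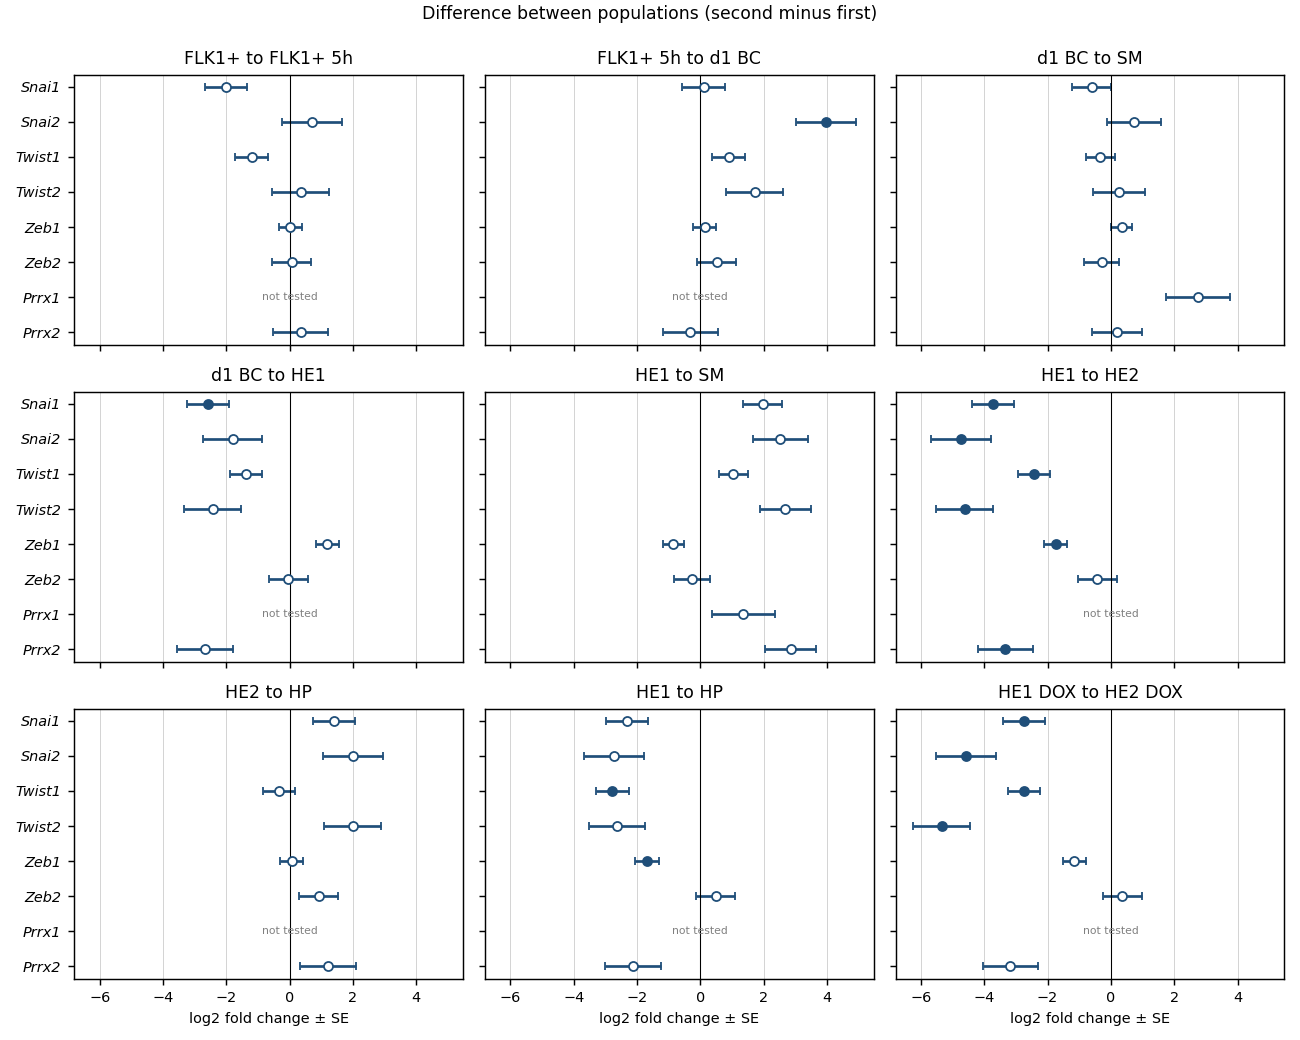
Log2 fold change of each gene with its standard error at each step between untreated populations, filled where the gene was called. At HE1 to HE2, 6 of 7 tested genes are called lower, while HE2 to HP holds no call.

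HE1 was also set against HP, the floating progenitors, a comparison that leaves out the weak HE2 array. Of the 7 genes tested, 2 fell, against 2.75% of all genes tested. Twist1 read -2.92 and -3.47 in HP and fell by 2.78 (SE 0.51, adjusted p = 0.00271). Zeb1 read 1.05 and 0.86 in HP and fell by 1.68 (SE 0.37, adjusted p = 0.00999). Both HP arrays lay below both HE1 arrays for these genes and for 6 of the 7 in all, against 24.1% of all genes. With median scaling neither Twist1 (adjusted p = 0.0625) nor Zeb1 (adjusted p = 0.360) was called. The Zeb1 call was also lost when the fit held just these groups (adjusted p = 0.125), and without HE1 replicate 1 (-1.54), HP replicate 1 (-1.77) or HP replicate 2 (-1.59). Snai1 differed by -2.32 (adjusted p = 0.0557), Snai2 by -2.73 (adjusted p = 0.131), Twist2 by -2.63 (adjusted p = 0.123) and Prrx2 by -2.13 (adjusted p = 0.237). Without HE1 replicate 2, Snai2 (-4.56) and Twist2 (-4.25) were called as well, and without HP replicate 2, Snai1 was called (-3.11). In the other direction, Snai2 went to -0.90 and Twist2 to -1.02 without HE1 replicate 1, and Snai1 to -1.53 and Prrx2 to -0.81 without HP replicate 1. Snai1 was also called, at the same difference, without any 1 of the HE2 or HE2 DOX arrays. These genes differed between the HP arrays too, with Prrx2 at -4.13 and -1.50 and Twist2 at -3.38 and -2.06. HP replicate 2, the higher array, also had the higher fibroblast summed level, 4.07 against 2.83. Smooth muscle markers (8.15 against 6.03) and epithelial genes (6.80 against 4.92) were higher there too. Other mesenchymal transcription factors were lower there (5.41 against 5.74).

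From HE2 to HP, limma called 0 of 7 genes, against 0.00394% of all genes. At an unadjusted p under 0.05, 2 of the 7 passed, Snai2 (2.01) and Twist2 (1.99), both higher in HP at an adjusted p of 0.758. Of all 25353 genes tested, 1665 passed at that level. Snai2 read -3.68 and -4.04 in HE2 and -2.41 and -1.30 in HP, so its groups did not overlap, as for 15.4% of all genes in this direction.

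Snai1 had its highest readings in FLK1+ cells, before blast culture. It stood at 4.60 and 3.85 there and at 2.70 and 1.72 after 5 h. The groups did not overlap (32.8% of all genes were lower without overlap), but the difference of -2.01 (SE 0.67) did not pass the test (adjusted p = 0.123). It was called under 5 alternative settings, among them the slide as a block (-2.50, adjusted p = 0.0480). Twist1 read 1.07 and 1.46 in FLK1+ cells and -0.47 and 0.60 after 5 h, 2.30-fold lower (adjusted p = 0.250), with log2 differences of -1.74 to -0.66 over left-out arrays. In all, 0 of 7 genes were called by limma at this step, against 3.28% of all genes called. An unadjusted p under 0.05 was reached by 2 of the 7, and by 3614 of all 22678 genes tested.

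Snai2 took the opposite course and rose between 5 h and 1 day. It read -1.68 and -0.92 at 5 h and 2.38 and 2.98 at 1 day, a rise of 3.98 (SE 0.95, adjusted p = 0.0380), or 15.7-fold. It was the 1 gene of 7 called, against 0.673% of all genes called higher. In the DOX-treated arrays it read -2.76 and -1.21 at 5 h and 3.11 and 2.90 at 1 day, a rise of 4.99 (adjusted p = 0.00931, against 0.721% of genes called higher). The untreated call was lost with quantile normalization, median scaling, the authors' values, no filter on dim probes, detection in both groups and the slide as a fixed block, at differences of 3.64 to 3.98 and adjusted p of 0.0517 to 0.153. It was also lost without either d1 BC array (3.67 and 4.28) or either FLK1+ 5h array (3.60 and 4.35). The same held, at the same difference, without d1 BC DOX replicate 2 or either HE2 DOX array. The DOX call was lost without d1 BC DOX replicate 1 (4.89), d1 BC DOX replicate 2 (5.09) or FLK1+ 5h DOX replicate 1 (4.22). Twist2 read 0.29 and 0.94 at 5 h and 3.04 and 1.65 at 1 day, a difference of 1.72 that did not pass (adjusted p = 0.504) and was 1.03 without d1 BC replicate 1. Of 24 mesenchymal genes tested at the untreated step, 2 were called higher and 1 lower, against 0.673% and 1.02% of all genes. Postn, a secreted mesenchymal matrix protein of this list, was not above background at 5 h and was at least 213-fold higher at 1 day. Thy1, of the same list, went the other way, from a mean of -0.27 at 5 h to -3.17 at 1 day.

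Day 1 cultures were then set against the sorted HE1 cells. These groups share no slide, so slide and group cannot be told apart here. Snai1 fell by 2.58 (SE 0.67, adjusted p = 0.0384), from 2.53 and 2.10 to 0.05 and -0.58, as the 1 gene of 7 called (1.51% of all genes were called lower). The call was lost with quantile normalization (-2.62, adjusted p = 0.0523), under which Zeb1 was called instead. No filter on dim probes, the slide as a fixed block and only the compared groups in the fit each lost the Snai1 call too. The Snai1 call was also lost without HE1 replicate 1 (-2.89), HE1 replicate 2 (-2.27), d1 BC replicate 1 (-2.36) or d1 BC replicate 2 (-2.80). Without FLK1+ 5h DOX replicate 2 it was lost at the same difference. Zeb1 moved the other way, from 1.28 and 1.61 to 2.78 and 2.50, a difference of 1.19 that did not pass (adjusted p = 0.0824, with 2.06% of all genes called higher). Prrx2 differed by -2.68 (adjusted p = 0.101), Twist2 by -2.43 (adjusted p = 0.157) and Twist1 by -1.38 (adjusted p = 0.158). Snai2 differed by -1.80 (adjusted p = 0.323), and by 0.023 without HE1 replicate 2. Twist2 was called without HE1 replicate 1 (-4.04) and differed by -0.82 without HE1 replicate 2.

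In SM, 0 of 8 genes were called by limma against HE1, while 0.756% of all genes were called. An unadjusted p under 0.05 was reached by 6 of the 8, and by 2133 of all 23407 genes tested. Prrx2 read 3.24, 1.06 and 2.20 in SM, 2.86 above HE1 (SE 0.80, adjusted p = 0.102). Twist2 read 2.81, 1.45 and 3.55, or 2.69 above HE1 (adjusted p = 0.145), and Snai2 read 4.02, 2.13 and 4.08, or 2.53 above (adjusted p = 0.222). For all 3 genes the lowest SM array was replicate 2, the one with raised endothelial markers. Without SM replicate 2, Prrx2 (3.41, adjusted p = 0.0344) and Twist2 (3.27, adjusted p = 0.0488) were called. Without HE1 replicate 1, Snai2 (4.36) and Twist2 (4.30) were called, while without HE1 replicate 2 they differed by 0.71 and 1.08. Zeb1 ran the other way, at 1.65, 1.71 and 2.01, or 0.85 below HE1 (adjusted p = 0.354).

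Against day 1 cultures, 0 of 8 genes were called by limma in SM, while 0.273% of all genes were called. At an unadjusted p under 0.05, 1 of the 8 passed, beside 1510 of all 23111 genes tested. The member that passed was Prrx1, a marker of limb and craniofacial mesenchyme. Its brighter probe was above background on all 3 SM arrays, at -2.53, -2.33 and -3.42, and on neither d1 BC array. With this probe SM was at least 4.62-fold higher, with an adjusted p of 0.457. The other Prrx1 probe did not show this, being above background on d1 BC replicate 2 (-3.01) and on no SM array (-4.89, -6.81 and -6.25). The probes disagree, so the direction for Prrx1 is uncertain.

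The order of the untreated means differed by gene. For Snai1 it ran FLK1+, d1 BC, FLK1+ 5h, SM, HE1, HP and HE2, and neighbours did not overlap between FLK1+ and d1 BC, between SM and HE1 and between HE1 and HP. For Snai2 it ran SM, d1 BC, HE1, FLK1+ 5h, HP, FLK1+ and HE2, and only FLK1+ and HE2 did not overlap. Twist1 ran FLK1+, d1 BC, SM, FLK1+ 5h, HE1, HE2 and HP, with a gap only between HE1 and HE2. Its lowest mean was in HE2 with quantile normalization, median scaling and the authors' values. Twist2 ran SM, d1 BC, FLK1+ 5h, FLK1+, HE1, HP and HE2, with gaps after d1 BC, HE1 and HP, and was highest in d1 BC with median scaling. HE2 and HP thus held the lowest places for Snai1, Twist1 and Twist2, and HE2 the lowest for Snai2. Zeb1 ran HE1, SM, d1 BC, FLK1+ 5h, FLK1+, HP and HE2, with gaps after HE1, SM and FLK1+, and was lowest in HP with quantile normalization and the authors' values. Prrx2 ran FLK1+ 5h, SM, d1 BC, FLK1+, HE1, HP and HE2, with gaps after FLK1+ and HE1. No neighbours in the orders of Zeb2, highest in HP, or Prrx1, highest in SM with its brighter probe, stood clear of each other. The highest and lowest Zeb2 means differed by 1.05 with the brighter probe and by 2.46 with the other probe, which put Zeb2 highest in HE1. The highest Prrx1 mean was in d1 BC with its other probe and in HE1 with the normexp background correction.

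Some genes shared these profiles over the 13 group means, as a description over groups that share slides and array quality. Snai1 was most like Ccdc136 (Pearson r = 0.995), Il17rd (0.973) and Etv5 (0.971). Snai2 was most like Rbms3 (0.992), Twist1 like Tmem121 (0.992) and Twist2 like Pitx1 (0.972). Zeb1 was most like Gdpd1 (0.962), Zeb2 like Tom1l2 (0.970), Prrx1 like Cldn3 (0.911) and Prrx2 like Mtcl1 (0.985). For Prrx1, above background on 9 of 27 arrays and with probes that disagree, most of the readings behind this value are not above background. The second most like Prrx2 was Dsp (0.983), which encodes the desmosome protein desmoplakin.

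No gene tested passed the thresholds with DOX in any of the 6 populations, where Prrx1 was tested in SM only and the other 7 genes in all. The limma test called 0 members at each stage, and 2 readings had an unadjusted p under 0.05, Twist2 in d1 BC and Zeb1 in HE2. An unadjusted p under 0.05 was reached by 395 of all 23975 genes tested in d1 BC and by 2377 of 24093 in HE2. Over all genes, the share called was 0% for HE1 and HE2, 0.0042% for FLK1+ 5h, 0.00834% for d1 BC, 0.021% for SM and 0.0398% for HP. None of the 5 tests of a difference in DOX effect between populations called a member, or any other gene (0%). In simulated data of this design, changes of 1 log2 unit in SM were called in 0% of genes, and changes of 3 units in 54%, so changes up to several-fold could be missed.

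In d1 BC, Twist2 read 3.04 and 1.65 without DOX and 0.43 and -0.55 with it. The difference was -2.40 (SE 0.90, unadjusted p = 0.0153, adjusted p = 1.00, 95% interval -4.28 to -0.52), and it was -2.60 and -2.20 within the 2 slides. Snai1 read 2.53 and 2.10 without DOX and 1.32 and 0.58 with it, a difference of -1.37 (adjusted p = 1.00, 95% interval -2.77 to 0.04). Prrx2 read 2.18 and 1.80 without DOX and 0.63 and 0.53 with it, a difference of -1.41 (adjusted p = 1.00, 95% interval -3.24 to 0.42). These 3 genes did not overlap between the groups, as did 9.61% of all genes in this direction, and the other 4 tested overlapped. Snai2 read 2.38 and 2.98 without DOX and 3.11 and 2.90 with it, a difference of 0.33 (95% interval -1.66 to 2.31). The fibroblast summed level was 5.16 and 5.39 without DOX and 4.33 and 3.91 with it. The median difference of the 9 fibroblast markers tested was -0.0066, against 0.13 for all genes. The part of the fibroblast level in these values was not tested.

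In SM, Snai1 read 1.59, 1.81 and 1.71 without DOX and 0.12 and 0.93 with it, a difference of -1.18 (adjusted p = 0.996, 95% interval -2.46 to 0.10). It did not overlap between the groups, against 6.14% of all genes lower without overlap. Prrx1 read -4.12 and, not above background, -5.51 with DOX, a difference of -2.06 (adjusted p = 0.996). It entered this test through untreated SM, where its brighter probe was above background, while its other probe was above background on no SM or SM DOX array, so the size of this difference is uncertain. Without SM DOX replicate 2 the differences were -1.59 for Snai1 and -1.36 for Prrx1, and without SM DOX replicate 1 they were -0.77 and -2.75. Without SM replicate 2 they were -1.12 and -1.84. Zeb1 read 2.04 and 2.46 with DOX, 0.46 higher and clear of the untreated arrays, as were 4.37% of all genes in this direction.

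In HE2 none of 7 tested genes was called with DOX, although all 7 differences were positive. For 5 of them, all but Zeb1 and Zeb2, the weak HE2 replicate 1 was not above background. The medians of the other lists in HE2 ran from -0.60 for epithelial genes and -0.13 for mesenchymal genes to 0.91 for upstream signals and 0.97 for fibroblast markers, against 0.17 for all genes. Zeb1 read 0.82 and 0.96 without DOX and 2.07 and 1.70 with it, a difference of 1.00 (SE 0.37, unadjusted p = 0.0143, adjusted p = 0.497, 95% interval 0.22 to 1.77). Zeb2 read 0.93 and 1.44 without DOX and 2.15 and 2.70 with it, a difference of 1.23 (adjusted p = 0.497, 95% interval -0.06 to 2.52). Snai2 differed by 1.34 (adjusted p = 0.536) and Twist2 by 0.45 (adjusted p = 0.815), both with HE2 replicate 1 not above background. Of the 7 genes, 4 were higher without overlap, Zeb1, Zeb2, Snai2 and Twist2, against 20.3% of all genes. Among these, Zeb1 and Zeb2 were above background on every array. With arrays centred on their median the median of all genes in this comparison went from 0.17 to 0.63, and with the normexp background correction Twist2 (-0.07) and Prrx2 (-0.06) turned negative.

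In HE1 none of 7 tested genes was called. Zeb1 read 2.78 and 2.50 without DOX and 3.20 and 2.89 with it, a difference of 0.41 (adjusted p = 1.00) and the only one without overlap (8.65% of all genes were higher without overlap). Snai2 differed by 1.18 and Twist2 by 1.18, but without HE1 replicate 2 these turned to -0.64 and -0.43. In HP, Zeb1 differed by 0.58 (adjusted p = 0.998) and was the 1 gene of 7 without overlap, against 25.6% of all genes. In FLK1+ 5h cells Zeb1 read 1.20 and 1.41 without DOX and 0.62 and 1.03 with it, a difference of -0.48 (adjusted p = 1.00) and the 1 gene of 7 lower without overlap, against 16.4% of all genes. Zeb1 thus read lower with DOX at 5 h and higher in HP, HE2, HE1 and SM.

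**Figure D3:**
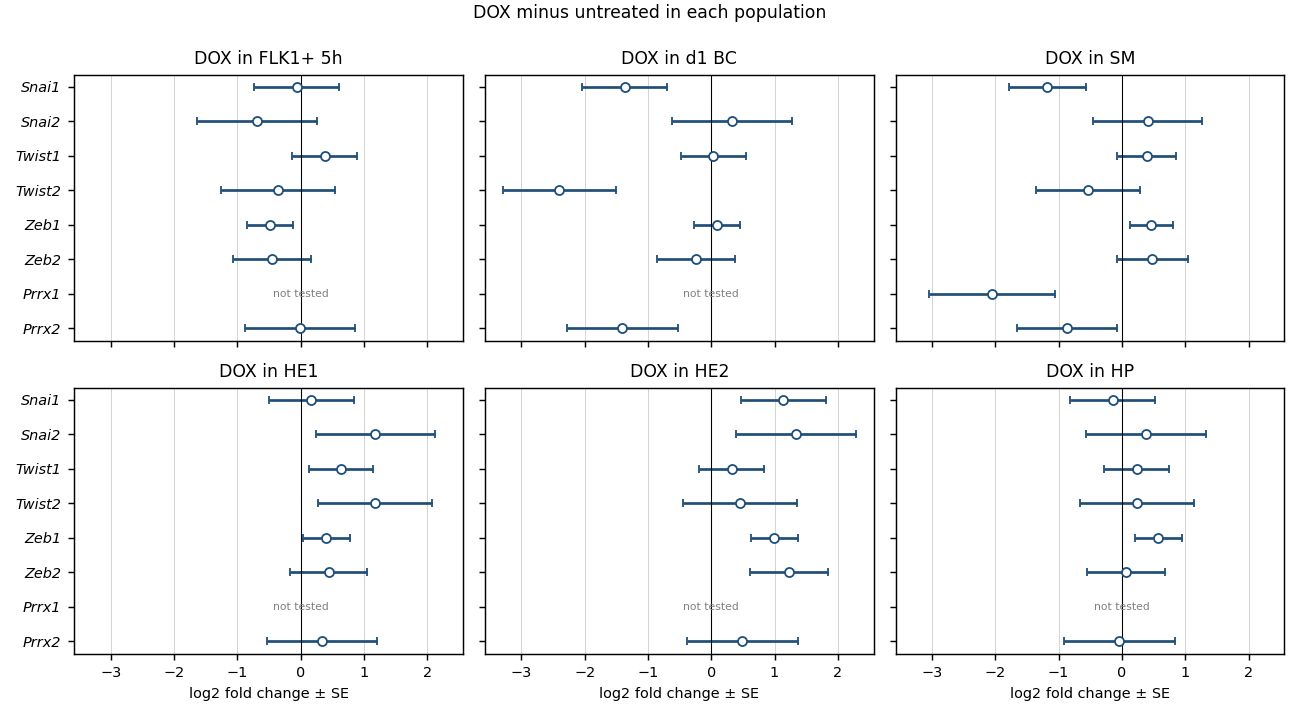
Log2 fold change with DOX and its standard error for each gene in the 6 populations. No gene is called. Twist2 in d1 BC (-2.40) is the lowest value and Snai2 in HE2 (1.34) the highest.

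Genes of related function were followed as fixed lists. The mesenchymal and fibroblast lists share genes, so their counts are not independent. From HE1 to HE2, 9 of 23 tested mesenchymal genes fell and none rose, with a list median of -1.92 against 0.04 for all genes. Over all genes, 2.08% were called lower at this step, the share to set beside each count of falls in these lists. Tnc, which encodes the matrix protein tenascin C, was above background on no HE2 array and was at least 13.7-fold lower there. Col3a1, a fibrillar collagen, fell by 4.37, Fbn1, a microfibril protein, by 3.64 and Pdgfrb, a growth factor receptor of mural cells, by 3.61. Other mesenchymal transcription factors fell in 4 of 17 cases, with Foxc2, Hand1 and Tbx20 falling by 3.98 to 5.44. Six2 was above background on no HE2 array and was at least 14.8-fold lower there. Pdgfrb, Foxc2, Hand1, Tbx20 and Dsp were above background on 1 of the 2 HE2 arrays, so the size of their falls is uncertain. Of 16 tested epithelial genes, 3 fell and none rose, with a median of -1.34. They were Cdh3, which encodes P-cadherin, the desmosome gene Dsp (-4.98) and the keratin gene Krt18 (-2.80), and the other 13 were not called. Cdh3 was above background on no HE2 array and was at least 13.6-fold lower there.

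For the genes that work with or above these factors, calls at that step stand beside 2.65% of all genes called either way. None of 9 E protein and ID protein genes, the partners of Twist proteins and their inhibitors, and none of 14 genes of repressor partners passed the test. Of 22 tested genes of upstream signals, 1 fell, Tgfb2 (-3.76), which encodes a ligand that induces Snail and Zeb genes. Hematopoietic markers rose in 5 of 12 cases and fell in none, against 0.567% of all genes called higher, with Gfi1b at 4.24, Myb at 4.17 and Runx1 at 4.14. Ikzf1 was above background on no HE1 array and was at least 18.9-fold higher in HE2. Smooth muscle markers fell in 2 of 10 cases, Acta2 (-3.11) and Cald1 (-3.04), fibroblast markers in 3 of 8, and endothelial markers in 0 of 12. On the DOX-treated arrays 8 of 25 mesenchymal genes, 3 of 18 other mesenchymal factors, 2 of 13 epithelial genes and 3 of 10 fibroblast markers fell, against 1.16% of all genes called lower, and 5 of 12 hematopoietic markers rose, against 0.445% called higher. No gene of these lists was called with DOX in any population.

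**Figure D4:**
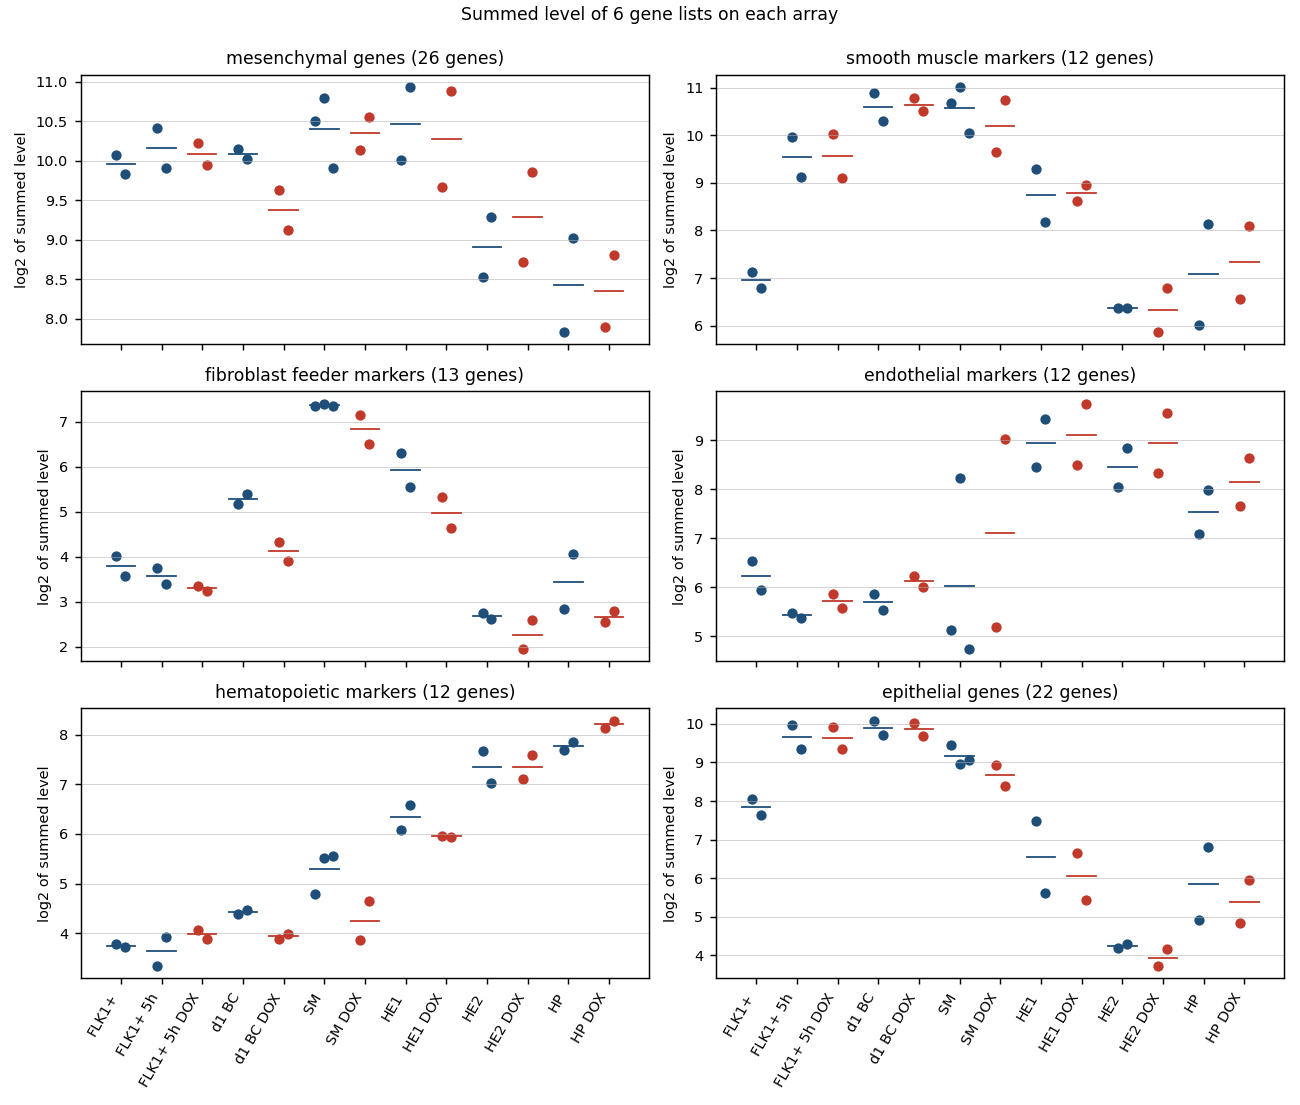
Log2 summed level of 6 gene lists on each array (y axis), by group (x axis), blue without DOX and red with DOX, with horizontal lines for group means. Mesenchymal, smooth muscle, fibroblast and epithelial lists are lower in HE2 than in HE1, hematopoietic markers are higher, and replicate 2 of SM and of SM DOX stands high for endothelial markers (8.23 and 9.02).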

How the data were processed

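RNA was hybridised to Agilent mouse arrays with 1 colour, 1 array per sample. The deposited scanner files hold the processed signal intensity that the authors obtained with Agilent Feature Extraction (version 10.7.1.1 per the labels), after background subtraction. The authors' table holds log2 values they normalized with limma, which were used here only as an alternative. The authors' further settings are not given in the sources used here.

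From the intensities, log2 values minus each array's 75th percentile over 55681 probes that are not controls were computed. Spots of one probe were averaged, and the brightest probe of each gene was kept. Probes were matched to symbols through the transcript accession. Tests kept genes that exceeded background on every array of 1 or more of the groups compared. Group means of all 27 arrays were fitted in limma 3.58.1 (R 4.3.3) with 28339 genes, 14 residual degrees of freedom and Benjamini-Hochberg adjustment over all genes tested. The number of arrays limits the precision, and no spot was saturated. The fit was tested on simulated data. No 2 arrays held identical values.

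The comparisons were the steps between untreated populations, DOX against none in 6 populations, and differences of these effects. The steps HE1 to HP, HE1 DOX to HE2 DOX and FLK1+ 5h DOX to d1 BC DOX were added after seeing the data. Members and gene lists were chosen with earlier results of these data known. Named were all members, Hprt, the up to 4 called genes of each list with the largest change in a comparison, and the 3 genes most like each member over group means among 16390 genes. Lum, Dcn, Postn, Thy1, Fap, Tagln, Myh11 and Acta2 as per-array markers were chosen after their values were seen. Alternatives changed the background correction, normalization, filter, probe, blocks (replicate number, slide), weights and variance model, or left out 1 array. Same-numbered arrays deviated together in some comparisons and not in others, so the numbers were not taken as pairs.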

Additional observations from a re-analysis of the deposited data

Results flagged for a closer look

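The DOX difference of Twist2 ran opposite ways in 2 populations, with every array on 1 side. It was -2.40 in d1 BC and 0.45 in HE2 on the log2 scale, and the difference between these values was not tested. In HE2 it was -0.07 with the normexp background correction, and 1 of the 2 untreated HE2 arrays was not above background for Twist2.

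The DOX difference of Zeb1 was -0.48 in FLK1+ 5h cells, against 1.00 in HE2, 0.58 in HP, 0.46 in SM and 0.41 in HE1, each with every DOX array on 1 side of the untreated arrays. These 4 differences from the 5 h value were not tested. Each of the 5 values kept its sign under the 4 other scalings.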

How the results depend on the processing

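Of 52 fold changes of at least 1 log2 unit, 15 were called, and 0 of the 15 changed direction under the 40 or 41 settings that gave each a value, 27 of them left-out arrays. The other probe exists for Zeb2 and Prrx1 only, and detection in both groups gave no value for 5 of the HE1 to HE2 calls. Over 2119 pairs of a result and a setting, 1945 stayed on their side of the threshold, 124 lost their call, 45 gained one and 5 reversed. Without HE1 replicate 2, Snai2 from d1 BC to HE1 (-3.63 to 0.023 over left-out arrays) reversed, as did Snai2 (-0.64 to 3.01) and Twist2 (-0.43 to 2.79) with DOX in HE1. Prrx2 from HE2 to HP (-0.10 to 2.53) reversed without HP replicate 2, and Prrx1 from HE1 to SM with normexp (-0.27). The cause was not tested.

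The untreated steps held 8 calls of members in all, against 5 with normexp, 3 with median scaling, 5 with no filter on dim probes, 2 with detection in both groups and 1 when the fit held just the compared groups, where few degrees of freedom remain. It was 11 with the authors' values, 12 with array weights and 10 with the random slide block. Left-out arrays gave 2 to 10. FLK1+ to FLK1+ 5h went from 0 to 1 with normexp, the authors' values, either slide block and array weights. FLK1+ 5h to d1 BC went from 1 to 0 with quantile normalization, median scaling, the authors' values, no filter, detection in both groups and the fixed slide block, and left-out arrays gave 0 to 1, as they did in its DOX counterpart, which also gave 0 with only the groups compared. d1 BC to HE1 kept 1 call with quantile normalization, but of Zeb1 in place of Snai1. It went from 1 to 2 with normexp, 3 with the authors' values or array weights, and 0 with no filter, the fixed slide block or only the groups compared (left-out arrays 0 to 1). HE1 to SM went from 0 to 2 with the authors' values or array weights and 1 with the random slide block (left-out arrays 0 to 2). HE1 to HE2 went from 6 to 1 with normexp or detection in both groups, 2 with median scaling and 0 with only the groups compared (left-out arrays 0 to 6). HE1 to HP went from 2 to 0 with median scaling, 5 with the random slide block and 1 with only the groups compared (left-out arrays 1 to 4). HE1 DOX to HE2 DOX went from 4 to 6 with either slide block, 5 with the authors' values, 3 with quantile normalization, no filter or detection in both groups, 2 with normexp or array weights, 1 with median scaling and 0 with only the groups compared (left-out arrays 1 to 5).

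The counts with DOX and of differing DOX effects were 0 under every setting run. With the replicate number as a block the step total was 7 and HE1 to HE2 gave 5, and crossing the numbers of the FLK1+ 5h arrays also gave 7. From HE1 to HE2, all genes split into 133 higher and 488 lower, against 97 and 149 with median scaling. Signal near background limits the low readings in HE2 and HP.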

Other observations

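From d1 BC to HE1, where 2.06% of all genes were called higher and 1.51% lower, 5 of 12 tested endothelial markers rose and none fell, among them Emcn, Sox18, Tie1 and Erg, while 4 of 11 smooth muscle markers fell, Cnn1, Myh11, Tpm2 and Myocd. Genes of upstream signals split at this step, with the receptor genes Tgfbr2 and Tgfbr3 higher and the ligand genes Bmp4 and Tgfb2 lower among 22 tested. Of 20 other mesenchymal transcription factors, 3 rose and 4 fell, among them Hand2 (4.50), Tcf15 (3.57) and Msx2 (-4.18), and Meox1, which was above background on no HE1 array and at least 6.60-fold lower there. Of 14 repressor partner genes, 1 fell, Ajuba (-2.20), which encodes a protein that binds SNAI1.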
